A study of Mus musculus with 19 samples.

Results

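The genes described here are the 100 odorant receptor genes with the highest levels in the mouse vomeronasal organ (VNO) at postnatal day 21 (P21). Genes whose symbol starts with Olfr were ranked by their mean TPM (a level per transcript length, scaled to the same total in every library) over all 19 libraries, after the TPM of each gene's transcripts had been added. Pseudogene symbols containing -ps, 298 in all, were left out. This left 1108 Olfr genes of 35596 genes with values, and the 100 highest were kept. Of them, 81 were also among the 100 highest by CPM and 95 among the 100 highest by TPM of the 12 controls. The choice used measured levels, so the levels and ranks are a description with no test, while no difference between groups was used in it.

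The study asked how loss of Smad4, the common mediator of canonical TGFβ and BMP signalling, changes gene expression in whole VNOs of female mice. Vomeronasal sensory neurons (VSNs) are apical or basal. AP-2εCre recombines in basal VSNs while they are immature, and OMPCre in mature VSNs of both kinds. Each line had 3 libraries from conditional knockouts (cKO; AP-2εCre+/-/Smad4flox/flox or OMPCre+/-/Smad4flox/flox), 3 from Cre heterozygotes (het; AP-2εCre+/- or OMPCre+/-) and 3 from Smad4flox/flox mice without Cre (flox), for which the sample labels say wild type. Hets and flox mice are both controls of the cKO and differ from each other in the Cre allele and in the floxed Smad4 alleles. OMPCre is a knock-in at the Omp gene, so that OMPCre hets and cKOs both carry 1 disrupted Omp allele. AP-2εCre is a targeted Cre allele of Tfap2e, the gene of AP-2ε, and AP-2εCre hets and cKOs both carry 1 such allele. The sample labels name the recombined VSN type as the cell type, although RNA came from the whole dissected organ. The remaining library has the title of an AP-2εCre het and the genotype label of an AP-2εCre cKO, and it entered the ranking by TPM and no comparison between groups other than an alternative that counts it as a het.

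Odorant receptors are G protein-coupled receptors of olfactory sensory neurons (OSNs) in the main olfactory epithelium. Each mature OSN makes a single receptor gene from a very large family that lies in clusters on many chromosomes. The receptor couples through Golf (Gnal) and adenylyl cyclase 3 (Adcy3) to a cyclic nucleotide-gated channel (Cnga2, Cnga4, Cngb1). VSNs mostly use other receptor families and the channel Trpc2, and only a small number of odorant receptors has been reported in VSNs. Class I receptors, the fish-like group, lie in a cluster on chromosome 7, and all other odorant receptors belong to class II.

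The libraries held between 43385516 and 134042284 estimated counts. Smad4 itself ranged from 33.8 to 66.8 CPM (counts per 1000000, TMM-normalized, with no account of length) in the AP-2εCre cKO and from 39.8 to 80.6 CPM in its 6 controls, and from 54.2 to 62.5 CPM in the OMPCre cKO against 65.2 to 83.9 CPM in its 6 controls. Neither difference was called in edgeR (quasi-likelihood test, Benjamini-Hochberg adjusted) (log2 fold change -0.09, adjusted p = 0.955, and -0.35, adjusted p = 0.909). The 7 vomeronasal neuron markers, which include Trpc2, Gnai2 and Gnao1, summed to 818 to 1204 CPM in the 18 assigned libraries. The 9 genes listed as defining markers of main olfactory neurons summed to 426 to 722 CPM, while Gucy2d, the marker of guanylate cyclase D neurons, stayed at or below 0.355 CPM. In these bulk samples, fewer cells of a type and less RNA per cell cannot be told apart.

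The 100 members made up 185 of 236 TPM of all ranked Olfr genes, or 78.4%. Their levels were uneven. The mean level of the median member was 0.612 TPM, and 24 members lay above 1 TPM. Of the ranked genes, 1025 had a mean above 0. In counts, 86 members had at least 10 in every library and 6 were at 0 in at least 1 library. At the edge of the choice, the last 3 members, Olfr736, Olfr24 and Olfr890, had 0.302, 0.297 and 0.297 TPM, and the next 3 genes, Olfr1389, Olfr1322 and Olfr482, had 0.296, 0.296 and 0.288 TPM. By annotation 99 members were protein-coding, and Olfr192 was a polymorphic pseudogene.

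**Figure D1:**
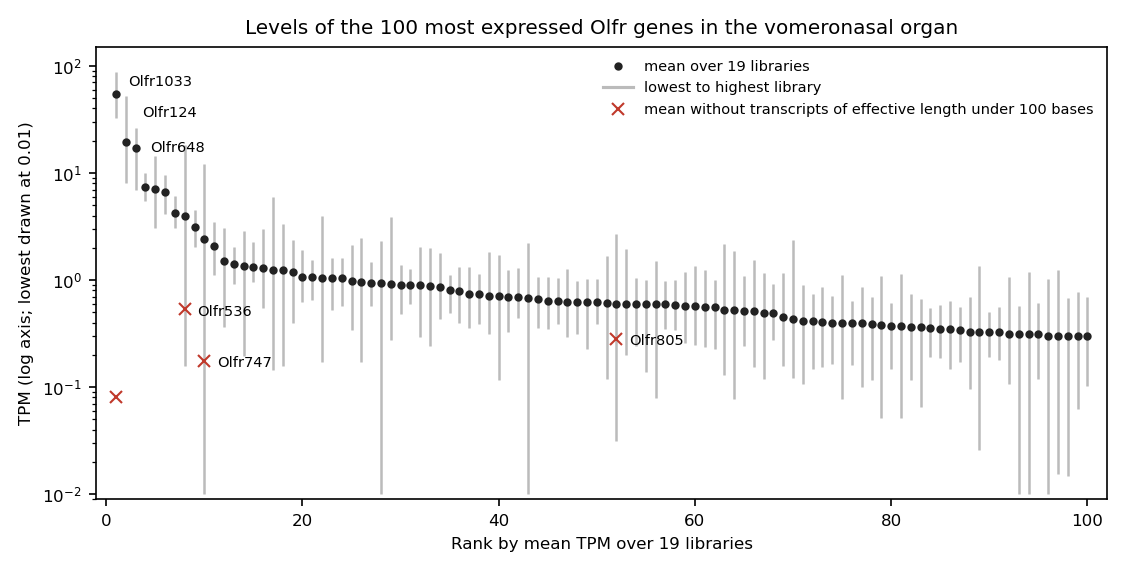
Mean TPM of the 100 members on a log axis against their rank. Black points are means over 19 libraries, grey lines run from the lowest to the highest library (values below 0.01 drawn at 0.01), and red crosses give the mean of 4 genes without transcripts of an effective length under 100 bases. Olfr1033 falls from 54.1 to 0.0814 TPM without its short transcript, and from rank 12 on the means run from 1.5 to 0.297 TPM.

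By TPM, Olfr1033 was highest, with a mean of 54.1 TPM (32.6 to 87.2 in the 19 libraries) and 29.3% of the members' total. Nearly all of that level, 99.8%, came from a transcript of 316 bases. Its effective length was 67.3 bases, so its mean of 263 estimated counts per library became a very high level per length. The other Olfr1033 transcripts added up to 0.0814 TPM, and in CPM, which takes no account of length, Olfr1033 ranked 22 among Olfr genes with 4.57 ± 0.985 CPM (SD, n = 18). In 3 further members, short transcripts, with an effective length under 100 bases, made up much of the TPM. Olfr536 had 3.94 TPM, of which 0.533 TPM came from transcripts with an effective length of at least 100 bases. Olfr747 had 2.42 TPM and 0.175 TPM by the same measure, with 1.68 counts on its shortest transcript, and it ranked 285 by CPM. For Olfr805 these levels were 0.60 and 0.284 TPM.

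Olfr124 and Olfr648 followed with 19.4 and 17.0 TPM, and they were the 2 highest Olfr genes by CPM. Olfr124 encodes SR1, the receptor known for its expression in most neurons of the septal organ, and had 65.6 ± 26.6 CPM (SD, n = 18). Olfr648, a class I gene, had 54.0 ± 15.8 CPM. Olfr90 (7.34 TPM), Olfr1509 (7.14 TPM), Olfr1385 (6.68 TPM), Olfr986 (4.21 TPM) and Olfr624 (3.12 TPM) came next among genes whose level did not rest on a short transcript. Olfr1509 encodes MOR244-3, known for its response to a sulphur compound of male mouse urine. Of the 15 highest genes, Olfr1388 (2.10 TPM), Olfr15 (1.5 TPM), Olfr552 (1.4 TPM), Olfr653 (1.34 TPM) and Olfr639 (1.33 TPM) completed the list. Neighbours in this lower stretch differed by less than their ranges over libraries, which ran from 0.364 to 3.07 TPM for Olfr15 and from 0.919 to 2.03 TPM for Olfr552. Of the receptors listed for a known role, Olfr15, Olfr78, Olfr124, Olfr692 and Olfr1509 were members. Olfr78, a class I receptor of short-chain fatty acids and lactate that is also expressed in the carotid body, had 0.693 TPM. Olfr692, a class I receptor reported in VSNs, had 0.595 TPM and 4 to 112 counts per library.

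Members differed widely in how stable they were. The coefficient of variation (CV) of CPM over the 18 assigned libraries had a median of 36.8%. It was under 30% in 44 members and over 60% in 15. Olfr90 was the most even (CV 11.3%, 16.6 to 24.3 CPM), followed by Olfr552 (12.8%) and Olfr986 (12.9%). Olfr464 (97%), Olfr48 (92.9%) and Olfr281 (88.5%) were the most variable. Olfr48 was at 0 in an OMPCre cKO library and reached 1.95 CPM in an AP-2εCre het, whereas Olfr464 and Olfr281 were high in all 3 libraries of a group, as described below. Library AP-2εCre flox replicate 3 held the highest value of the 19 libraries for 21 of the 100 members, and OMPCre flox replicate 3 the lowest for 15.

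**Figure D2:**
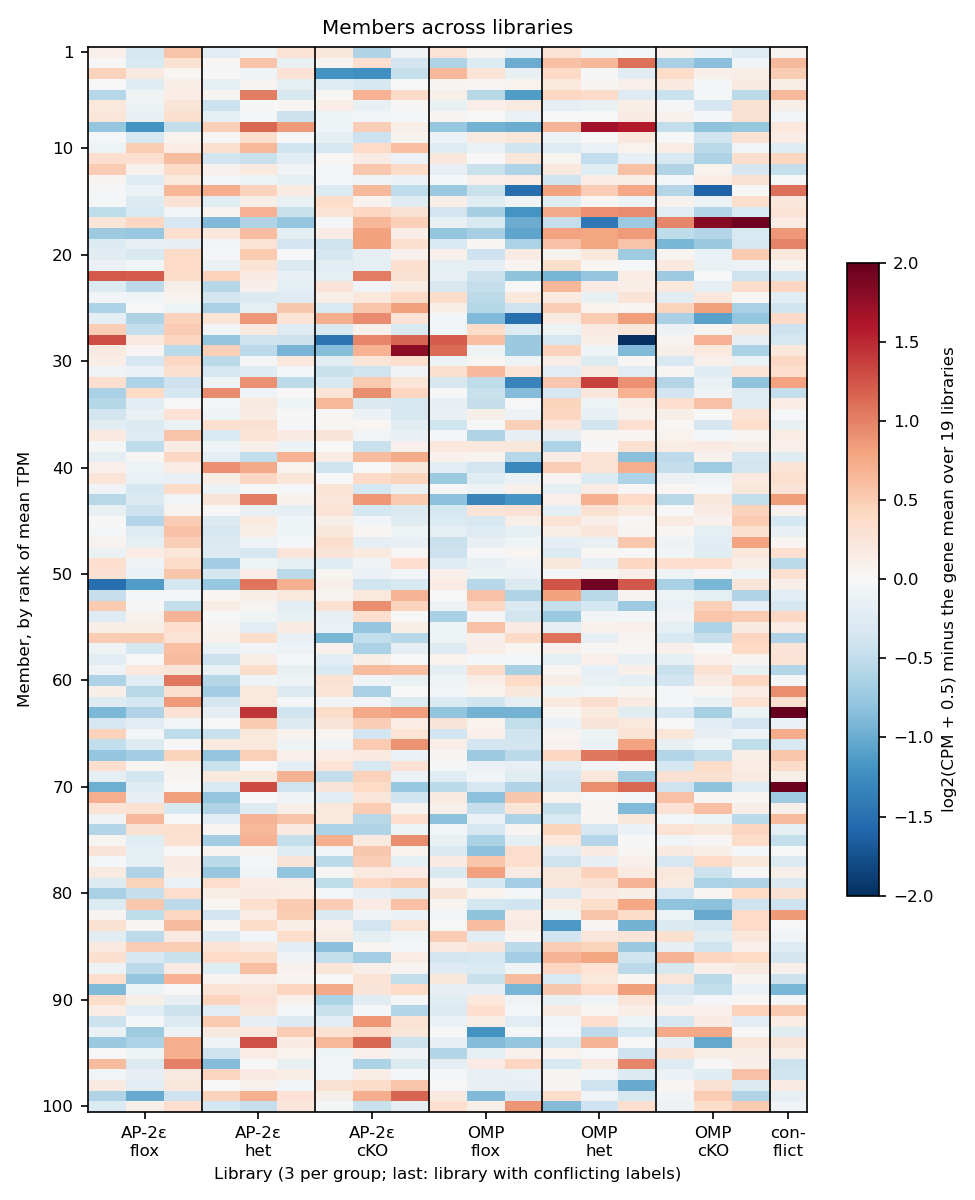
Each row is a member in order of mean TPM and each column a library, with 3 columns per group and the library with conflicting labels last. Colour gives log2(CPM + 0.5) minus the mean of the gene over the 19 libraries. Most rows stay pale, and rows 8 (Olfr536) and 51 (Olfr281) are red in the OMPCre hets and row 17 (Olfr464) in the OMPCre cKO.

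Members lay on many chromosomes. Chromosome 2 held 23 of its 282 ranked Olfr genes among the members, chromosome 7 held 22 of 241 and chromosome 14 held 13 of 39, or 33.3%. Chromosomes 1, 4 and 19 had 27, 24 and 63 ranked Olfr genes and no member. When Olfr genes less than 1 Mb apart were joined, all 13 members on chromosome 14 fell into the cluster at chr14:49894258-52495749 (GRCm38), which has 36 ranked Olfr genes. Its members ranged from Olfr1509 at 7.14 TPM to Olfr736 at 0.302 TPM and include Olfr1508, Olfr1512, Olfr728, Olfr740, Olfr741 and Olfr745. The largest cluster, chr2:85330779-90403897, had 17 members of 218 genes (7.8%). The cluster with the class I genes, chr7:102476579-105369355, had 12 members of 127 (9.45%), among them Olfr648, Olfr624, Olfr552, Olfr653, Olfr639, Olfr78 and Olfr692. These counts describe positions and were not tested, since the members were chosen by level.

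Similar receptors can share reads. Of all 75-base windows in a member's transcripts, the share also found in another gene was above 10% for 13 members. It was highest for Olfr560 (38.6%) and Olfr747 (30.5%), whose main partners were Olfr78 and Olfr749, and it was 13.2% for Olfr78 itself. Values of these genes are therefore uncertain. The gene models of Olfr78 and Olfr560 also overlap, as do those of Olfr639 and Olfr640 with Olfr643, Olfr115 with Olfr116 and Olfr56 with Ifi47. The genes that carry the results below shared little: 0% for Olfr124, Olfr455 and Olfr464, 0.41% for Olfr536, 2.0% for Olfr648 and 3.38% for Olfr741.

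Counts of all genes were compared between groups in edgeR (quasi-likelihood test, p-values adjusted by Benjamini-Hochberg over the genes tested). Genes with an adjusted p below 0.05 are referred to as called. All 100 members passed the filter on low counts in each of the 6 comparisons. The 2 comparisons within a line share their flox and het libraries, and the values are given side by side.

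**Figure D3:**
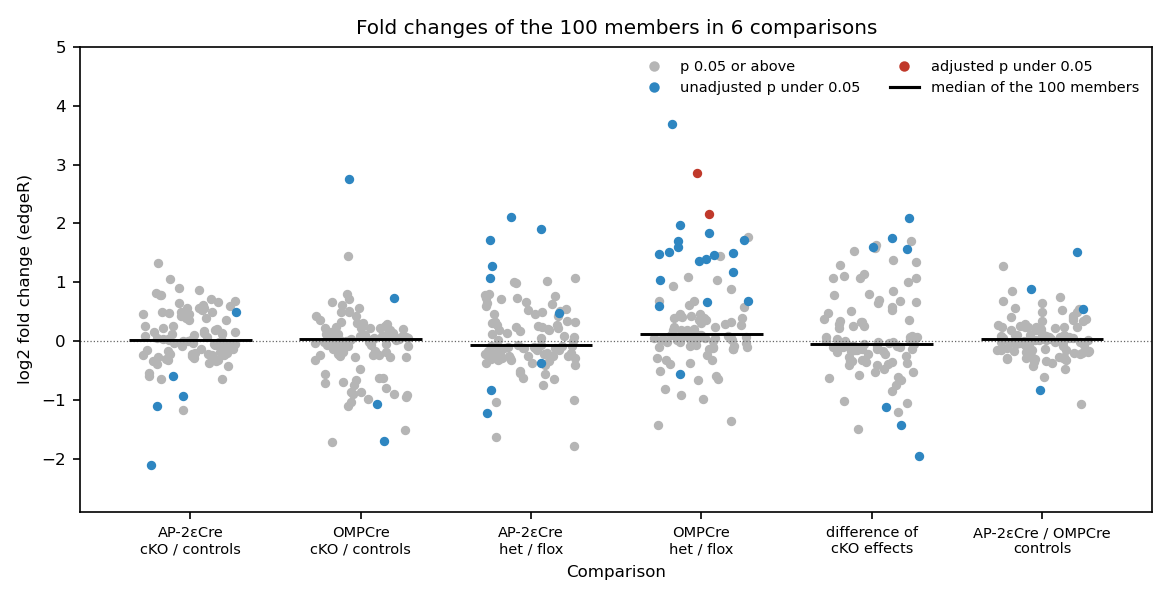
log2 fold changes of the 100 members in the 6 comparisons, 1 point per gene, with the median as a black bar. Blue points have an unadjusted p under 0.05 and red points an adjusted p under 0.05. Medians lie between -0.07 and 0.12, and the only red points are Olfr536 and Olfr741 in OMPCre het against flox.

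The largest set of differences lay between the controls of the OMPCre line. In OMPCre hets, 2 members, Olfr536 and Olfr741, were higher than in flox mice at an adjusted p under 0.05, against 0.0752% of all 18623 genes tested. At an unadjusted p under 0.05 there were 20 members, against 5.84% of all genes, and 19 of them were higher, against 2.51% of all genes, and 1, Olfr1260, was lower, against 3.33%. The values of hets and flox libraries did not overlap for 22 members, against 11.5% of all genes, and 19 of these were higher in hets, against 6.45%. The mean was higher in hets for 70 members, against 47.0% of all genes. The median log2 fold change of the members was 0.12, and that of all genes -0.01. Of 301 other Olfr genes that passed the filter, 210 had a higher mean in hets and 16 had an unadjusted p under 0.05 in that direction. The median log2 fold change of these 301 genes was 0.45, above that of the members.

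Olfr536 had 0.897, 0.728 and 0.689 CPM in the 3 OMPCre flox libraries and 3.29, 7.06 and 6.58 CPM in the 3 hets. All 3 hets lay above all 3 flox libraries, and the fold difference was 7.23 (log2 fold change 2.85 ± 0.35 SE, adjusted p = 0.036, edgeR quasi-likelihood test). In the OMPCre cKO, which carries the same Cre allele, Olfr536 had 1.17, 0.855 and 0.892 CPM, close to the flox libraries. Against the hets alone, the cKO was at a log2 fold change of -2.52 ± 0.35 SE (adjusted p = 0.103). The short transcript that raised the TPM of Olfr536 held 4.62% of its counts. Olfr741 had 0.791, 0.896 and 0.558 CPM in flox libraries and 3.36, 3.33 and 3.5 CPM in hets (fold difference 4.49, log2 fold change 2.17 ± 0.28 SE, adjusted p = 0.047). In the cKO it had 1.06, 0.968 and 1.29 CPM. Both calls depended on the setting. Without any 1 of the 9 libraries of the line, the adjusted p of Olfr536 ran from 0.0371 to 0.178 and that of Olfr741 from 0.0724 to 0.197, with log2 fold changes of 2.67 to 3.13 and 2.01 to 2.32. Olfr536 was then called only without het replicate 1, and Olfr741 in none of the 9 cases. With all 18 libraries in 1 edgeR fit, Olfr536 was called (adjusted p = 0.00377) and Olfr741 was not. With a replicate block, edgeR called neither. DESeq2 called both and 9 further members (11 in all), against 0.84% of all genes with an adjusted p in DESeq2. The library names fall into 2 series, and each group has 1 or 2 libraries in each. Within the series, hets were 6.36 and 9.55 times as high as flox libraries for Olfr536 and 3.97 and 6.27 times as high for Olfr741.

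Some genes with larger counts had the same order of groups and were not called. Olfr455 had 3.91, 3.15 and 2.01 CPM in flox libraries, 9.25, 10.4 and 10.6 CPM in hets and 4.40, 3.34 and 4.15 CPM in the cKO (het against flox: log2 fold change 1.72 ± 0.25 SE, adjusted p = 0.0677). Its adjusted p in edgeR was 0.049 without flox replicate 3 and 0.0388 with all 18 libraries in 1 fit. Olfr124, the septal organ receptor, had 41.2, 51.4 and 31.2 CPM in flox libraries, 94.1, 98 and 135 CPM in hets and 39.6, 34.7 and 59.9 CPM in the cKO (log2 fold change 1.39 ± 0.25 SE, adjusted p = 0.217). For both genes the hets lay above all other libraries of the line. Within the series of library names the ratios of het to flox were 2.78 and 5.28 for Olfr455 and 2.08 and 4.32 for Olfr124. Olfr281 had 2.34, 1.2 and 1.58 CPM in flox libraries and 5.54, 9.29 and 5.49 CPM in hets (adjusted p = 0.485), and Olfr653 had 2.59, 3.27 and 1.32 against 8.47, 6.74 and 8.36 CPM (adjusted p = 0.618). Both sets of hets lay above the flox libraries without overlap. Olfr1348, whose reads are partly shared with other genes, had the largest fitted difference, 3.69 ± 1.06 SE on the log2 scale, on 0.213, 0 and 0.0558 CPM in flox and 0.861, 1.56 and 1.14 CPM in het libraries (adjusted p = 0.619). Olfr1260 was the only member at an unadjusted p under 0.05 with the opposite order (Olfr655 and Olfr164 were also lower without overlap), with 4.96, 6.34 and 4.76 CPM in flox and 3.29, 4.46 and 3.25 CPM in het libraries (log2 fold change -0.56 ± 0.23 SE, adjusted p = 0.829). The remaining members with an unadjusted p under 0.05 were Olfr1264, Olfr1508, Olfr370, Olfr279, Olfr728, Olfr140, Olfr975, Olfr740, Olfr374, Olfr1384, Olfr784 and Olfr15, with log2 fold changes of 0.59 to 1.83. Olfr741, Olfr1508, Olfr728 and Olfr740 lie in the cluster on chromosome 14. Olfr648, the second most expressed gene by CPM, had 83.0, 62.9 and 46.9 CPM in flox libraries and 68.9, 51.7 and 44.9 CPM in hets, which overlapped (log2 fold change -0.23 ± 0.22 SE, adjusted p = 0.949). Summed over the members, OMPCre hets had 505 to 544 CPM (519 ± 22.0, SD, n = 3), flox libraries 371 to 422 CPM (402 ± 26.9) and cKO libraries 390.0 to 477 CPM (427 ± 45.1). Without the 3 members highest by CPM (Olfr124, Olfr648 and Olfr1385), the sums were 334 ± 9.99 CPM in hets, 273 ± 4.95 CPM in flox and 300.03 ± 28.2 CPM in cKO libraries.

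**Figure D4:**
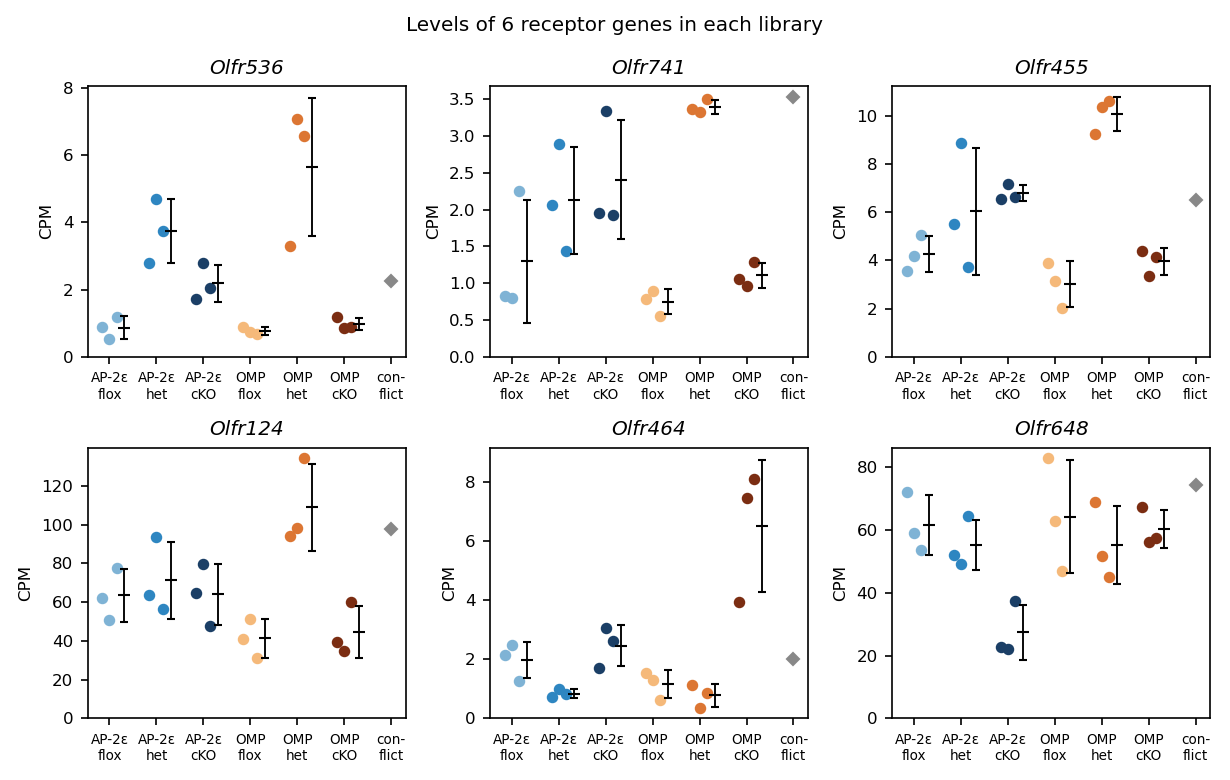
CPM of 6 members in each library, 3 points per group, with the mean and SD as a bar beside them and the library with conflicting labels as a grey diamond. By group mean, Olfr536, Olfr741, Olfr455 and Olfr124 are highest in the OMPCre hets and Olfr464 in the OMPCre cKO, and Olfr648 is lowest in the AP-2εCre cKO.

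Defining markers of main olfactory neurons were also higher in these hets. The 9 genes summed to 642 to 658 CPM in OMPCre hets, 426 to 520 CPM in flox and 515 to 554 CPM in cKO libraries. In OMPCre het against flox, 7 of the 9 had an unadjusted p under 0.05, all higher, and none was called by edgeR. The full list of 14 adds genes that were listed as possibly also made by VSNs. Its sum overlapped between hets (1080.3 to 1124 CPM) and flox libraries (882 to 1159 CPM), with 9 genes higher and 1 (Omp) lower at that p. Gnal, the G protein of odorant receptors, had 51.5, 40.4 and 24.9 CPM in flox libraries, 89.3, 90.7 and 104.3 CPM in hets and 33.7, 34.6 and 48.1 CPM in the cKO. The 9 genes did not move as 1 set. Rtp1, the most abundant of them in this line, had a log2 fold change of 0.12 in hets against flox. In OMPCre flox replicate 3, where Gnal, Cnga2 and Stoml3 were at their lowest (24.9, 7.20 and 17.9 CPM), Rtp1, Cngb1 and Ano2 (238, 63.4 and 58.9 CPM) were at the highest levels of the 3 flox libraries. The vomeronasal marker Trpc2 (139 CPM) was also at its highest of the flox libraries there. Whether VSNs make some of the 9 genes, and how far the summed level follows the number of main olfactory neurons, was not tested. Gnal, Cnga2 and Stoml3 together, chosen after their values were seen, summed to 177 to 189 CPM in hets, 50.04 to 109.8 CPM in flox and 73.2 to 94.0 CPM in cKO libraries. With the summed defining markers as a covariate, 9 of the 100 members had an unadjusted p under 0.05 in place of 20, against 8.33% of all genes, and 6 of the 9 were among those 20. None was called. With the 3 genes as the covariate, an alternative added after the data were seen, 4 members had an unadjusted p under 0.05, against 4.16% of all genes, 3 of them were among the 20, and none was called. The log2 fold changes of Olfr536 were then 2.76 and 2.55 and those of Olfr741 2.66 and 1.48, with adjusted p-values of 0.555, 0.985, 0.541 and 0.985 in that order by edgeR. In these libraries the marker level and the genotype differ together, so that their contributions to the receptor values cannot be told apart. The vomeronasal neuron markers summed to 1072 to 1154 CPM in hets and 983 to 1184 CPM in flox libraries, and none of the 7 had an unadjusted p under 0.05.

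**Figure D5:**
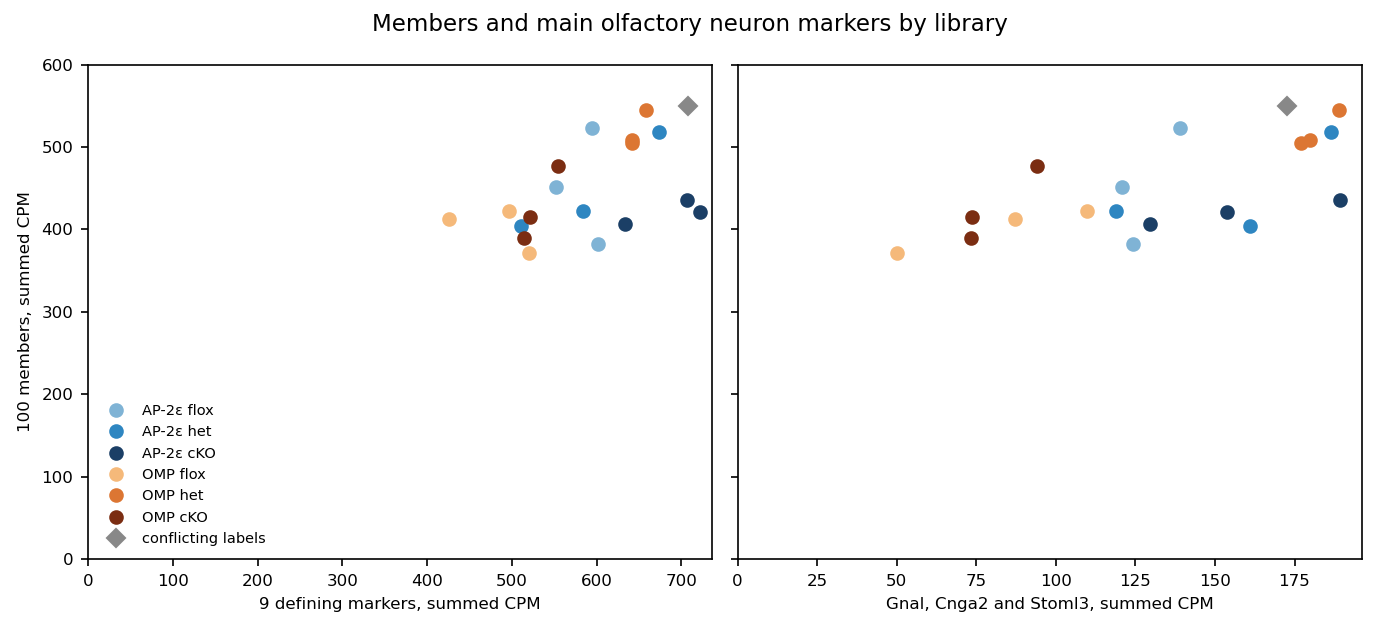
Summed CPM of the 100 members against the summed CPM of the 9 defining markers (left) and of Gnal, Cnga2 and Stoml3, 3 of the 9 chosen after their values were seen (right), 1 point per library, coloured by group, with all axes from 0. The 3 OMPCre hets lie at 505 to 544 CPM of members and to the right of the other OMPCre libraries in both panels (642 to 658 and 177 to 189 CPM of markers), while some AP-2εCre libraries reach as high a marker level in both.

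In the OMPCre cKO against its 6 controls, no member was called, as for all 18623 genes (0.0%). At an unadjusted p under 0.05 there were 4 members, against 3.95% of all genes, and 3 did not overlap between groups, against 2.31%. The median log2 fold change was 0.03, and the members ran from -1.71 to 2.75. Olfr464 had the smallest p. It had 3.95, 7.47 and 8.12 CPM in the cKO, 1.52, 1.32 and 0.633 CPM in flox and 1.13, 0.333 and 0.864 CPM in het libraries. All 3 cKO libraries lay above all 6 controls, with a fold difference of 6.72 (log2 fold change 2.75 ± 0.42 SE), and the adjusted p was 0.211 by edgeR. It was 0.00622 with all 18 libraries in 1 edgeR fit and 6.48e-07 by DESeq2. Within the series of library names the cKO was 5.31 and 10.9 times as high as the controls. In the AP-2εCre cKO Olfr464 had 1.69, 3.07 and 2.61 CPM against 0.722 to 2.49 CPM in the controls (adjusted p = 0.56). Next by p came Olfr1208, with 0.187, 0.177 and 0.401 CPM in the cKO and 0.409 to 1.54 CPM in the controls (log2 fold change -1.70 ± 0.55 SE, adjusted p = 1), and Olfr338, with 3.46, 5.58 and 5.50 CPM against 1.97 to 3.56 CPM (log2 fold change 0.74 ± 0.25 SE, adjusted p = 1). Without OMPCre flox replicate 3 the 4 members at an unadjusted p under 0.05 became 11, against 4.69% of all genes, and without flox replicate 2 they became 7, against 3.73%. Against the hets alone, 16 members had an unadjusted p under 0.05, against 4.96% of all genes, and against the flox mice alone 3, against 3.54%, with none called by edgeR in either case.

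In the AP-2εCre cKO against its 6 controls, no member was called, against 0.0378% of 18495 genes. There were 5 members at an unadjusted p under 0.05, against 10.2% of all genes, and 4 without overlap, against 5.12%. When 1 library was left out, the first count ran from 3 (without cKO replicate 2 or flox replicate 2) to 8 (without het replicate 2). Against the flox mice alone it was 9, against 8.09% of all genes, and against the hets alone 7, against 9.1%. Their median log2 fold change was 0.01 and the range -2.11 to 1.33. Olfr648 had the smallest p. It had 22.6, 22.0 and 37.5 CPM in the cKO, 72, 59.2 and 53.5 CPM in flox and 52.0, 49.2 and 64.3 CPM in het libraries. Every cKO library was below every control, and the cKO mean of 27.4 ± 8.78 CPM (SD, n = 3) was 2.14-fold lower on the fitted scale (log2 fold change -1.10 ± 0.19 SE, adjusted p = 0.15 by edgeR and 3.01e-06 by DESeq2). Within the series of library names the ratios to the controls were 0.512 and 0.384. The library with conflicting labels, which has the cKO genotype label and the title of a het, had 74.3 CPM of Olfr648, above all 9 assigned libraries of the line, so that the groups would overlap if it were a cKO. In the OMPCre line the cKO had 67.3, 56.1 and 57.4 CPM and the controls 44.9 to 83.0 CPM (log2 fold change 0.02 ± 0.19 SE). The difference between the lines in the effect on Olfr648 was -1.11 ± 0.28 SE and was not called (adjusted p = 0.982). Olfr692, the receptor reported in VSNs, had 0.0622, 0.258 and 0.220 CPM in the cKO, 1.01, 1.02 and 0.782 CPM in flox and 0.629, 0.851 and 0.458 CPM in het libraries. Its groups did not overlap either (log2 fold change -2.11 ± 0.53 SE, adjusted p = 0.284 by edgeR and 0.00981 by DESeq2), on 4, 36 and 15 counts in the cKO. The library with conflicting labels had 0.198 CPM of Olfr692, within the range of the cKO. Olfr920 had 1.15, 1.71 and 2.04 CPM in the cKO and 1.80 to 2.99 CPM in the controls (log2 fold change -0.60 ± 0.26 SE, adjusted p = 0.468). The defining markers of main olfactory neurons summed to 634 to 722 CPM in the cKO and 511 to 674 CPM in the controls. Markers of motile ciliated respiratory cells summed to 357 to 536 CPM in the cKO and 560.0 to 728 CPM in the controls, with 4 of 6 lower at an unadjusted p under 0.05 and none called. Of the vomeronasal neuron markers, Vmn2r2 had a log2 fold change of -0.74 and Gnai2 one of 0.28, both at an unadjusted p under 0.05 and not called. Their part in these values was not tested.

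Between AP-2εCre hets and flox mice, no member was called, against 0.0487% of all genes. There were 9 members at an unadjusted p under 0.05, against 5.47% of all genes, 6 of them higher (2.65% of all genes) and 3 lower (2.81%), and 14 without overlap, against 9.92%. The first count ran from 5 without flox replicate 1 to 14 without flox replicate 3. The median log2 fold change was -0.07. Olfr536 had 0.882, 0.533 and 1.19 CPM in flox libraries, 2.78, 4.70 and 3.75 CPM in hets and 1.73, 2.80 and 2.04 CPM in the cKO. The hets lay above the flox libraries without overlap, as in the OMPCre line (log2 fold change 2.10 ± 0.37 SE, adjusted p = 0.185). It was called by edgeR with all 18 libraries in 1 fit (adjusted p = 0.0258). Olfr741 had 0.830, 0.80 and 2.26 CPM in flox libraries and 2.06, 2.89 and 1.44 CPM in hets, which overlapped (log2 fold change 0.72 ± 0.48 SE, adjusted p = 1). Olfr1388 had 8.43, 8.35 and 10.4 CPM in flox libraries and 4.94, 4.70 and 5.55 CPM in hets (log2 fold change -0.84 ± 0.16 SE, adjusted p = 0.224). Of the 7 vomeronasal neuron markers, Gnao1 and Tfap2e had an unadjusted p under 0.05 in this comparison, with log2 fold changes of -0.38 and -1.03. Tfap2e is the gene that holds the AP-2εCre allele of these hets. Of the supporting cell and gland markers, Bpifb9b and Cyp2a5 had such a p, with log2 fold changes of 4.51 and 1.03. AP-2εCre het replicate 1 had the lowest vomeronasal marker sum of all libraries (818 CPM, against 1072 and 1079 CPM in the other hets), with 49.9 CPM of Trpc2 against 102.03 and 129 CPM. Without it, 7 members had an unadjusted p under 0.05, against 3.55% of all genes. None of Gnao1, Tfap2e, Bpifb9b and Cyp2a5 was called by edgeR, and the markers' part in the receptor values was not tested.

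The effects of the cKO in the 2 lines were also compared with each other. No member was called, as for all 19465 genes tested (0.0%), and 7 had an unadjusted p under 0.05, against 4.91% of all genes. That count ran from 5 to 12 when 1 library was left out, and it was 12 without OMPCre flox replicate 3, against 4.92%. The median difference was -0.05. Besides Olfr648, the 7 were Olfr370, Olfr1208, Olfr464, Olfr102, Olfr140 and Olfr192, with differences of -1.95 to 2.09 (adjusted p-values of 0.982 to 1 by edgeR). Between the controls of the AP-2εCre line and those of the OMPCre line no member was called, against 0.159% of all genes, and 4 had an unadjusted p under 0.05, against 7.28%. That count ran from 2 (without AP-2εCre flox replicate 2 or het replicate 3) to 6 when 1 library was left out. The values of no member were free of overlap between the 2 sets of 6 controls, against 0.483% of all genes. Olfr449 had 3.37, 3.35 and 1.65 CPM in AP-2εCre flox and 1.80, 1.36 and 1.00 CPM in AP-2εCre het libraries, and 1.00, 0.728 and 0.447 CPM in OMPCre flox and 0.376, 0.466 and 1.33 CPM in OMPCre het libraries (log2 fold change 1.52 ± 0.41 SE, adjusted p = 0.239). Olfr78 had 2.17 to 3.46 CPM in AP-2εCre controls and 1.31 to 2.61 CPM in OMPCre controls (log2 fold change 0.54 ± 0.19 SE, adjusted p = 0.521).

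Other genes of odorant reception were listed for comparison. Of 32 genes of odorant transduction and receptor choice, none was called by edgeR in any of the 6 comparisons. At an unadjusted p under 0.05, 11 were higher and 1 lower in OMPCre hets against flox mice. The higher genes were Gnal, Cnga2, Cnga4, Ano2, Slc24a4, Adcy3, Stoml3, Rtp2, Pde4a, Ric8b and Ebf4. Ric8b, the exchange factor of Golf, had the smallest p, with 25.0, 24.6 and 22.0 CPM in flox libraries and 34.8, 34.3 and 38.9 CPM in hets (log2 fold change 0.58 ± 0.09 SE, adjusted p = 0.0748). The lower gene was Omp, with a log2 fold change of -0.76 ± 0.16 SE (adjusted p = 0.347). An unadjusted p under 0.05 was reached in either direction by 5.84% of all genes in that comparison. In the AP-2εCre cKO 5 of the 32 were higher and none lower at an unadjusted p under 0.05 (10.2% of all genes in either direction), and in the OMPCre cKO 3 and none (3.95%). In AP-2εCre hets 1 was higher and 1 lower (5.47%), in the difference between the lines 3 and none (4.91%), and between the controls of the lines 1 and 1 (7.28%). The 16 trace amine-associated receptor genes did not pass the filter in any comparison and summed to at most 0.844 CPM in an assigned library.

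Markers of guanylate cyclase D neurons summed to 102.3 to 185 CPM, most of it from Car2 (93.8 to 150 CPM). None of the 5 had an unadjusted p under 0.05 in any comparison. Markers of supporting cells and glands of the main epithelium summed to 33541 to 119380 CPM and varied widely within groups. Nearly all of this sum came from Obp2a (31526 to 118450 CPM). Of these 7, at an unadjusted p under 0.05, 1 (Cyp2g1) was higher in OMPCre hets and 2 were lower in the AP-2εCre cKO. In AP-2εCre hets 2 were higher at that p, as were 2 in the AP-2εCre against the OMPCre controls. In the difference between the lines 1 was lower. Cyp2g1 had 64.5, 46.1 and 26.1 CPM in OMPCre flox libraries and 100.69, 83.6 and 95.4 CPM in hets. In the OMPCre cKO it had 47.7, 64.4 and 45.0 CPM. Its log2 fold change in these hets against flox was 1.02 ± 0.29 SE (adjusted p = 0.61, edgeR). Its part in the receptor values was not tested. Obp2a and Cyp2a5 had log2 fold changes of -0.35 and -0.24 there, neither at an unadjusted p under 0.05. Markers of immature neurons and progenitors summed to 181 to 320 CPM, with 2 of 6 higher in the AP-2εCre cKO and 1 (Neurog1) higher in OMPCre hets at that p. Red blood cell markers summed to 1163 to 3414 CPM, and 1 of the 4 was called, lower in the AP-2εCre controls than in the OMPCre controls (Alas2, log2 fold change -0.89, adjusted p = 0.0107 by edgeR). At an unadjusted p under 0.05, Alas2 was also lower in the OMPCre cKO and higher in the difference between the lines, Hbb-bs was lower in the AP-2εCre controls, and Hba-a1 was higher in AP-2εCre hets. Of the vomeronasal neuron markers, Gnai2, Meis2 and Tfap2e were higher in the OMPCre cKO at that p. Between the controls of the lines, Meis2 was higher and Tfap2e lower in the AP-2εCre line, whose hets carry the Cre allele of Tfap2e. Of the motile ciliated markers, 3 of 6 were higher in the AP-2εCre controls than in the OMPCre controls.

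To show the sequence before a RefSeq start of some genes described above, RefSeq promoters (GRCm38.p6) were matched by symbol for 85 of the 100 members. For 79 of these the RefSeq start lay within 100 bases of a GENCODE transcript start. The 250 bases before the RefSeq start are given 5′ to 3′ on the strand of the gene, with motif matches in capitals. For Olfr455, Olfr124, Olfr464 and Olfr648 these bases lie inside the GENCODE gene model, downstream of its 5′ end. Both strands were searched for CCCNNGGG, which EBF factors bind. They were also searched for the homeodomain motif TAATTA, for its variant TAATGA, and for the TATA box as TATAAA. The EBF motif and the first homeodomain motif read the same on both strands, and no motif contains another. Olfr536 (chr7:140507319-140507568, minus strand), Olfr455 (chr6:42539021-42539270, minus strand) and Olfr124 (chr17:37804819-37805068, plus strand) are shown because their group mean was highest in OMPCre hets. For Olfr741 no sequence is shown. Olfr464 (chr11:87915004-87915253, minus strand) and Olfr648 (chr7:104180407-104180656, minus strand) are shown for the 2 cKO comparisons.
Olfr536: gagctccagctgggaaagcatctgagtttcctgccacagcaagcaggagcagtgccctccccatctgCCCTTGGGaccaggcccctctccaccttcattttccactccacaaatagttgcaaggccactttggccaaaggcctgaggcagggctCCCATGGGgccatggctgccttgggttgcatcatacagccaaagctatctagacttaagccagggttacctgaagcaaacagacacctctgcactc
Olfr455: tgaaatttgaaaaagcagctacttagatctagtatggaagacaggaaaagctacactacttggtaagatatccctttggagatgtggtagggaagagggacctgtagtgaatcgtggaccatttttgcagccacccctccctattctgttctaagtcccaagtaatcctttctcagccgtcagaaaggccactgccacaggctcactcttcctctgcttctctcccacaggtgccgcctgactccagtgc
Olfr124: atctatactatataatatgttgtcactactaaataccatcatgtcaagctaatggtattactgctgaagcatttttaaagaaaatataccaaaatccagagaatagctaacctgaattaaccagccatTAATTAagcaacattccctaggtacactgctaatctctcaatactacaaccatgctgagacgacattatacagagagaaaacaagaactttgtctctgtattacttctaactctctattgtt
Olfr464: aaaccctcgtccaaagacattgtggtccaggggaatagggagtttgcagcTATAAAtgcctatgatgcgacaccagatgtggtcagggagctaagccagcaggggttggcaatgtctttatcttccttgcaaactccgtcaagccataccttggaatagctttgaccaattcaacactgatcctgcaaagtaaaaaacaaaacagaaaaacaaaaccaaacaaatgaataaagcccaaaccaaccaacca
Olfr648: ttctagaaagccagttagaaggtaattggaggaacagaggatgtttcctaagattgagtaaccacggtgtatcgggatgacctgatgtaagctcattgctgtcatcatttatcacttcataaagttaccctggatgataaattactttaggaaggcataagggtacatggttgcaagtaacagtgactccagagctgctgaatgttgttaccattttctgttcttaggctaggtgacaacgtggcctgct
Olfr536 held 2 matches to CCCNNGGG, Olfr124 held 1 to TAATTA and Olfr464 held 1 to TATAAA. Olfr455 and Olfr648 held no match in this window. Over all windows, CCCNNGGG was found in 3 of 85 members (3.53%), in 2.69% of 856 other Olfr genes and in 11.7% of all 27025 genes. The motif TAATTA was found in 14.1%, 18.6% and 4.9% of the same sets. Its variant TAATGA was found in 22.4%, 25.5% and 8.77%. The TATA box was found in 35.3%, 39.8% and 13%. These shares were not tested. A match is a stretch of letters and not a measured site.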

How the data were processed

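RNA from whole dissected VNOs of P21 female mice was sequenced as stranded polyA+ libraries (single reads of 75 bases). The authors quantified transcripts with Salmon 0.14.0 on Ensembl GRCm38 (coding sequences, per the methods, although the deposited transcripts include long ones, such as 3406 bases for a transcript of Olfr741) and deposited an estimated count (not rounded) and a TPM per transcript. The authors tested with DESeq2 1.22.2. Here, 116072 of 116248 transcripts were assigned to genes, counts were summed per gene and rounded, and TPM was summed per gene. Members were the 100 Olfr genes with the highest mean TPM. The members and lists were chosen with earlier results of these data known. Totals per library ran from 43385516 to 134042284, and p-values measure the spread between the labelled replicates. Genes were tested with edgeR 4.0.16 (R 4.3.3; TMM, filterByExpr, glmQLFit, two-sided quasi-likelihood test) over the libraries of a line, or over all 18 for comparisons between lines, with Benjamini-Hochberg adjustment over all genes tested. The method was tested on simulated data. DESeq2 1.42.0, other filters and scalings, a replicate block, covariates and the omission of each library were alternatives, and the covariate of Gnal, Cnga2 and Stoml3 was added after the data were seen. Genes were named if they were among the 15 highest, called, among the 3 smallest p-values in a cKO comparison, the 3 most or least variable, at the edge of the choice, or of known role. Other genes, among them Olfr455, Olfr124 in its comparison and Olfr1388, were chosen after their values were seen. One library with conflicting labels was left out of the comparisons, and adding it to the AP-2εCre hets was an alternative.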

Additional observations from a re-analysis of the deposited data

Results flagged for a closer look

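The library whose title and genotype label disagree, left out of the comparisons except for an alternative that counts it as a het, had 549.7 CPM summed over the members, above the highest of the 6 AP-2εCre controls (523 CPM). Of the 7 libraries, it had the highest value for 18 of the 100 members and the lowest for 9. Its group is not known from the labels.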

How the results depend on the processing

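DESeq2 called 2 members in the AP-2εCre cKO (Olfr648 and Olfr692, against 1.67% of all genes), 1 in the OMPCre cKO (Olfr464, against 0.228%), 3 in AP-2εCre het against flox (Olfr536, Olfr1388 and Olfr24, against 0.662%), 11 in OMPCre het against flox (Olfr536, Olfr741, Olfr455, Olfr124, Olfr1264, Olfr281, Olfr1348, Olfr279, Olfr1508, Olfr653 and Olfr370, against 0.84%), and 1 between the controls of the lines (Olfr449, adjusted p = 0.0308, against 0.802%). With all 18 libraries in 1 edgeR fit, 1 member was called in the OMPCre cKO (Olfr464, against 0.0771%), 1 in AP-2εCre het against flox (Olfr536, against 0.17%) and 2 in OMPCre het against flox (Olfr536 and Olfr455, not Olfr741, against 0.0462%). In OMPCre het against flox, the 2 calls became 1 when every gene with any count was tested (0.0505% of all genes), 1 with the series of library names as a factor (0.102%), 0 with either marker covariate (0.0%) and 0 to 1 when any library was left out. With a replicate block they became 0, against 0.0376% (Olfr536 adjusted p = 0.122, Olfr741 adjusted p = 0.148, edgeR). The replicate numbers were not taken to pair the samples: correlations of same-numbered samples ran from -0.183 to 0.146 in the AP-2εCre line and from -0.0345 to 0.287 in the OMPCre line (5 of 9 over 0.1), and those of other pairs from -0.164 to 0.208 and from -0.2705 to 0.121. With the library of conflicting labels counted as a het, no member was called by edgeR, and 6 members in the AP-2εCre cKO, 12 in AP-2εCre hets, 8 in the difference between lines and 6 between the controls of the lines had an unadjusted p under 0.05 (10.4%, 5.32%, 5.18% and 7.79% of all genes). With the marker covariate the median log2 fold change of the members was -0.18 in the AP-2εCre cKO and -0.16 for the difference between lines. With each library left out, the median was -0.13 to 0.15 in AP-2εCre hets (0.15 without flox replicate 3), 0.11 to 0.23 in OMPCre hets (0.23 without het replicate 3) and -0.084 to 0.066 for the difference between lines (0.066 without OMPCre cKO replicate 3). The cause of these shifts was not tested. Olfr692 has no value under a filter of at least 10 counts in every library. There were 3 libraries per group, and values of members at a few counts, such as Olfr692, are imprecise.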
